A study of Mus musculus with 4 samples.

Results

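Genes of the proteasome and of the enzymes that attach and remove ubiquitin were examined for histone H3 lysine 9 acetylation (H3K9ac), a modification found at active gene starts, in leukaemic mouse bone marrow. The members are the rows of the deposited table whose symbol begins with Psma to Psmg and a digit, Ube2, Uba and a digit, or Usp and a digit, with 1 Psmb gene left out by the rule. There were 116 of them among 9615 genes: 44 proteasome genes, 6 E1 enzymes, 28 E2 enzymes, 35 deubiquitinases of the USP family, and 3 genes that carry such a symbol without being an enzyme or subunit of that kind. RefSeq (GRCm38.p6) lists 151 protein-coding genes under these symbols. The other 35, among them Psmb6, Ube2t and Usp5, have no row in the table used here.

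Bone marrow cells were taken from mice with homozygous floxed Gfi1b alleles and the NUP98-HOXD13 leukaemia transgene. The strain labelled MxCre(wt) gave the library called WT here, and the strain labelled MxCre(tg) gave the library called tg. WT therefore means that Cre was absent, and the animals still carried the leukaemia transgene and the floxed alleles. Mx-Cre is an interferon-inducible Cre that acts in blood cells and other tissues. The labels give neither the age of the mice nor the number pooled, nor how or whether Cre was induced. There was 1 H3K9ac library per genotype, which leaves every difference without a check by replicates, and no test between genotypes was made. "Higher" and "lower" describe these 2 libraries.

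The deposited value of a gene is the mean over its probes of the log2 read number, scaled to 1000000 reads per library. Probes are the regions in which reads were counted, and no source used here gives their positions or lengths. Levels are therefore compared between libraries, and between genes only to filter or to pick well covered genes. The totals behind the scaling were 309649 reads in WT and 163712 in tg, and 1 read is worth 3.23 scaled reads in WT and 6.11 in tg. Folds given with a bracket are ratios of summed reads, scaled by these totals, and the bracket is an exact conditional binomial (Clopper-Pearson) 95% interval. It covers counting error only, and treats each read as a separate molecule. Reads that carry no molecular identifier cannot be shown to be that, so the interval may be too narrow. A gene is counted as higher or lower when its deposited log2 values differ by at least 2-fold.

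The libraries differed broadly outside these genes. Of the marker lists, all 10 erythroid markers had a row, and their summed level was 420.5 scaled reads in WT and 1502 in tg. Of these, 9 were at least 2-fold higher in tg, with Epor, Rhag and Alas2 at 0 reads in WT. Tfrc was within 2-fold and gave 264.8 of the WT sum and 323.7 of the tg sum. The 7 interferon-stimulated genes with a row of 10 listed summed to 1006 and 316, with Gbp3 at 0 reads in tg, and each of the 7 was at least 2-fold lower in tg. Neutrophil markers (4 of 10 with a row) summed to 184 and 34.2, and monocyte and dendritic markers (7 of 8) to 371 and 170.4. The latter went both ways: Irf8, Ly86, Flt3 and Tlr9 were at least 2-fold lower in tg, Csf1r was at least 2-fold higher, and Ctss and Cx3cr1 lay above equality within 2-fold. Of the megakaryocyte list 2 of 6 genes had a row (300.3 and 66.6, with Selp at 0 reads in tg). For the B cell list it was 2 of 5 (149 and 219.9), and for the T cell list 2 of 5 (29.1 and 85.5). The T cell sums rest on only 9 WT and 14 tg reads. The Y-linked genes Uty and Ddx3y had 28 and 22 reads in WT against 0 and 1 in tg, and 4 members lie on the X chromosome. In whole marrow, a different share of a cell type and a different acetylation per cell cannot be told apart, and the part of these lists in the values below was not tested.

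Ubiquitin is activated by an E1 enzyme, passed to an E2 conjugating enzyme and attached to a substrate with the help of an E3 ligase. Chains of ubiquitin can direct the substrate to the 26S proteasome. The 19S regulatory particle of the proteasome binds and unfolds it with a ring of ATPases, and the 20S core, built of alpha and beta rings, cuts it inside. Deubiquitinases, of which the USP family is the largest, trim or remove the chains. In red cell maturation this system removes much of the protein content of the cell, and interferon replaces some core subunits by those of the immunoproteasome, which favours peptides for antigen presentation.

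Across the 116 members, 16 had at least a 2-fold higher value in tg and 14 at least a 2-fold lower one, 13.8% and 12.1%. Over all genes of the table the shares were 16.5% and 15.8%. The median log2 ratio of the members was 0.25, against 0.04 over all genes (0.045 before rounding). Of the members 75 lay above 0 and 41 below, beside 4985 above and 4630 below over all 9615 genes. Their log2 ratios had an SD over genes of 0.91, against 1.27 over all genes. By summed reads, known for 114 members, the interval lay above 1 for 15 (13.2%) and below 1 for 9 (7.89%), where it did so at 12.8% and 12.7% of all genes with summed reads. At 3-fold, 8 members were higher and 5 lower, where the shares over all genes were 8.49% and 7.99%. More members were lower than higher among genes of 1 probe (9 higher and 11 lower, beside 14.3% and 16.1% of all such genes) and with summed reads (11 and 13, beside 14.8% and 15.4%). The shares of members beyond 2-fold were near or below those of the table. Of the members, 59.5% reached the median level of the table, and their median WT reads were 26.5, against 25 over all genes. At or above that level, 7 of 69 members were higher and 6 lower, against 10.2% and 10.8% of all such genes. The level is the mean of the scaled values of both libraries, so a gene can reach it through the library where it is high. Pooling the reads of the 114 members gave 3726 in WT and 2201 in tg, a ratio of 1.12. The same pooling over all genes with summed reads gave 0.981, a value that the scaling itself holds near 1. Those pools, 316045 and 163984 reads, were close to the totals used for scaling.

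**Figure D1:**
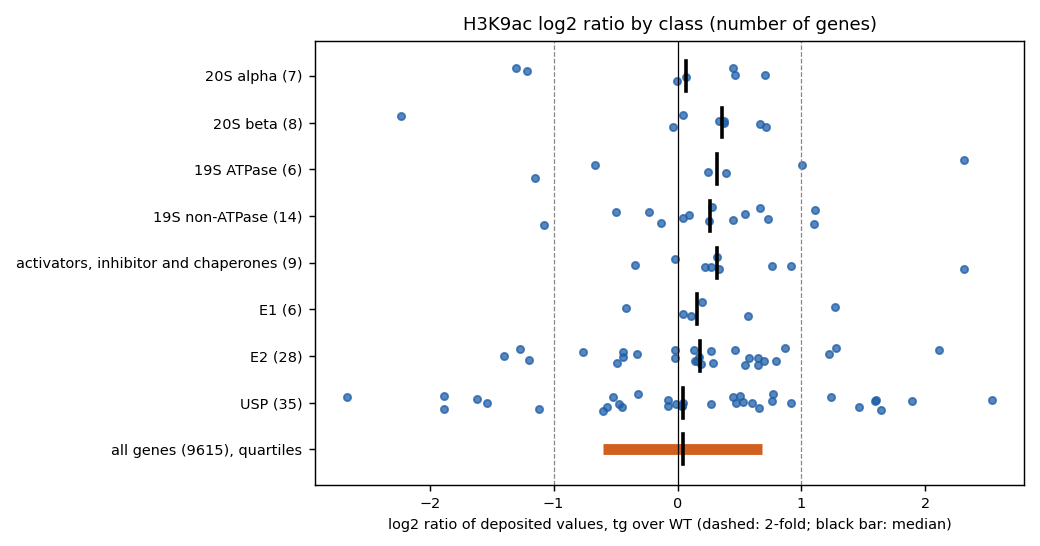
Log2 ratio of the deposited H3K9ac values, tg over WT (x axis), for the members (points) in 8 classes (y axis, number of genes in brackets; the 3 genes alike in name only are not drawn); black bars are medians, the orange bar spans the quartiles of all 9615 genes, and dashed lines mark 2-fold. The medians of the classes drawn lie between 0.04 and 0.36, and the USP points run from -2.67 to 2.54.

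The median log2 ratio was 0.07 for the 20S alpha genes, 0.36 for the beta genes, 0.32 for the 19S ATPases, 0.26 for the other 19S genes, 0.32 for activators, inhibitor and chaperones, 0.16 for E1, 0.18 for E2 and 0.04 for the USP genes. The USP value depended on the genes taken in: it was 0.36 for those at or above the median level of the table and 0.15 without the sex chromosomes. The filter on level is built from the compared values themselves. The 3 genes alike in name only had a median of -0.46. The interquartile range was 0.69 for the 44 proteasome genes (1.29 for their 6 ATPases), 1.00 for E2 and 1.26 for the USP genes, beside 1.28 over all genes. Members beyond 2-fold made up 22.7% of the proteasome genes (3 of the 6 ATPases), 21.4% of the E2 genes and 37.1% of the USP genes, beside 32.3% of all genes. USP genes also had more often several probes: 65.7% had a single probe, against 90.9% of the proteasome genes and 77.2% of all genes, and the classes were not matched for this or for depth.

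Alpha subunits form the outer rings of the 20S core and gate its entrance. All 7 had a single probe, 0 were 2-fold higher in tg and 2 (28.6%) were lower, beside 16.5% and 15.8% of all genes. Psma1 (ENSMUSG00000030751, chromosome 7, 114264606 to 114276118, GRCm38) held 28 WT reads and 6 tg reads, a level of 90.4 and 36.6 scaled reads. It was 2.47-fold lower in tg, and its interval for the ratio of tg to WT, 0.137 to 0.998, only just excludes 1. Psma7 was similar in size, with 22 and 5 reads, 2.33-fold lower (0.860 to 7.86), and its interval includes equality. Psma3 was level at 55 and 29 reads (ratio 0.997, 0.613 to 1.59), and so was Psma4 at 18 and 10, a probe it shares with the gene model AY074887. Psma5, Psma2 and Psma6 leaned upward without reaching 2-fold. Psma6, the best covered of these, had 36 and 31 reads and a ratio of 1.63 (0.974 to 2.71), and Psma2 shares its probe with the mitochondrial ribosomal protein gene Mrpl32 (22 and 16 reads).

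Beta subunits carry the cutting sites. Of the 8 among the members, 0 were 2-fold higher and 1 (12.5%) was lower, beside 16.5% and 15.8% of all genes. The lower gene was the immunoproteasome gene Psmb8 (ENSMUSG00000024338, chromosome 17, 34197721 to 34201454). Its 2 probes held 17 and 28 reads in WT and 2 and 3 in tg. Summed, this was 45 and 5 reads, 4.76-fold lower in tg (1.90 to 15.4), and the tallest probe alone was lower too (ratio 0.203, 0.0394 to 0.656). The interferon-stimulated list was lower in the same library. Psmb5, the constitutive subunit whose place the Psmb8 product takes in the immunoproteasome, held 16 WT and 11 tg reads, a ratio of 1.30 (0.546 to 2.98). The other immunoproteasome gene among the members, Psmb10, had 23 and 19 reads, a ratio of 1.56 (0.805 to 3.0). It has the same values as the overlapping gene model Gm16156. The Psmb gene left out by the rule is not part of this comparison. The remaining constitutive subunits Psmb1, Psmb2, Psmb3, Psmb4 and Psmb7 had log2 ratios between -0.04 (Psmb2) and 0.67 (Psmb1), and each of their intervals includes 1. Psmb8 and Psmb10, which enter the same particle, thus lay on opposite sides of equality, and their intervals do not overlap. They also have the lowest and highest log2 ratios of the 8 beta genes, and how often genes part in this way was not tested.

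The 6 ATPases of the 19S base, which open the core and pull the substrate in, are present once each in a particle. Their ratios ran from 2.22-fold lower to 4.96-fold higher. Psmc6 (ENSMUSG00000021832, chromosome 14, 45329824 to 45349071) held 8 WT and 21 tg reads, 25.8 and 128 scaled reads. This was 4.96-fold higher in tg (2.11 to 13.0), and it had the highest log2 ratio of the 44 proteasome genes, 2.31. Psmc3 had 17 and 18 reads and was at the 2-fold border (2-fold, 0.974 to 4.14), a probe with the same values as the gene model Gm13778. Psmc1 (chromosome 12, 100110186 to 100123364) went the other way, with 42 WT and 10 tg reads, 2.22-fold lower (1.10 to 4.96). Psmc6 and Psmc1 are the ends of the range of the 6 ATPases, picked by the values themselves. That their intervals do not overlap is therefore no test of a difference among these genes. Psmc2 (35 and 22 reads), Psmc4 (13 and 9) and Psmc5 (15 and 5, a probe shared with Ftsj3) each had an interval that includes 1. All 6 genes had a single probe.

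Among the 14 non-ATPase genes of the 19S particle, 2 (14.3%) were 2-fold higher, 1 (7.14%) was lower and 11 were within 2-fold. Over all genes 16.5% were higher and 15.8% lower. Psmd14, the deubiquitinase of the lid that removes chains as the substrate enters, had 22 WT and 25 tg reads, 71.0 and 153 scaled reads, 2.15-fold higher (1.16 to 4.0). Psmd10 (gankyrin, a chaperone of base assembly) was 2.16-fold higher on 7 and 8 reads, and Psmd9, also a base chaperone, 2.12-fold lower on 16 and 4 reads. Both of these rest on few reads and their intervals include 1 (0.685 to 7.0 for the ratio of Psmd10, 0.682 to 8.69 for the reduction of Psmd9). Psmd10 is X-linked. Psmd5, the other chaperone, stayed near equality at 27 and 17 reads (1.19, 0.609 to 2.27). The scaffold subunits Psmd1 (31 and 26 reads, ratio 1.59, 0.905 to 2.76) and Psmd2 (24 and 21, 1.66, 0.876 to 3.10) leaned upward, the ubiquitin receptor gene Psmd4 leaned down (16 and 6, 0.709, 0.227 to 1.91), and none of these 3 intervals excludes 1. The lid genes Psmd3, Psmd6, Psmd7, Psmd8, Psmd11, Psmd12 and Psmd13 lay between -0.23 (Psmd12) and 0.54 (Psmd11) in log2 ratio, and Psmd3 has the same values as the gene model Gm12356. Best covered of them was Psmd6, with 46 and 26 reads and a ratio of 1.07 (0.634 to 1.77).

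Of the 9 activators, inhibitor and assembly chaperones, 1 (11.1%) was 2-fold higher and 0 were lower, beside 16.5% and 15.8% of all genes. The higher gene was Psmf1 (ENSMUSG00000032869, chromosome 2, 151715812 to 151744186), which encodes PI31, a regulator first described as an inhibitor of the 20S core. Its 3 probes held 2, 3 and 7 reads in WT and 6, 7 and 18 in tg. Summed, 12 and 31 reads gave a 4.89-fold higher level in tg (2.44 to 10.4), and both the tallest probe (4.86-fold, 1.94 to 13.8) and the rest (4.92-fold, 1.64 to 17.6) showed it. The PA28 activator genes Psme1 and Psme2, neighbours on chromosome 14 and inducible by interferon, had 36 and 15 reads (0.788, 0.401 to 1.48) and 9 and 6 reads (1.26, 0.369 to 3.97). Psme3, the nuclear activator, had 19 and 17 (1.69, 0.826 to 3.44), and Psme4, which encodes PA200, 38 and 21 over 3 probes (1.04, 0.583 to 1.83). The core assembly chaperones Psmg1, Psmg2, Psmg3 and Psmg4 had log2 ratios of 0.22, 0.27, 0.92 and -0.02. Psmg2 shares its probe with Cep76, and the 0.92 of Psmg3 rests on 9 reads in each library.

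**Figure D2:**
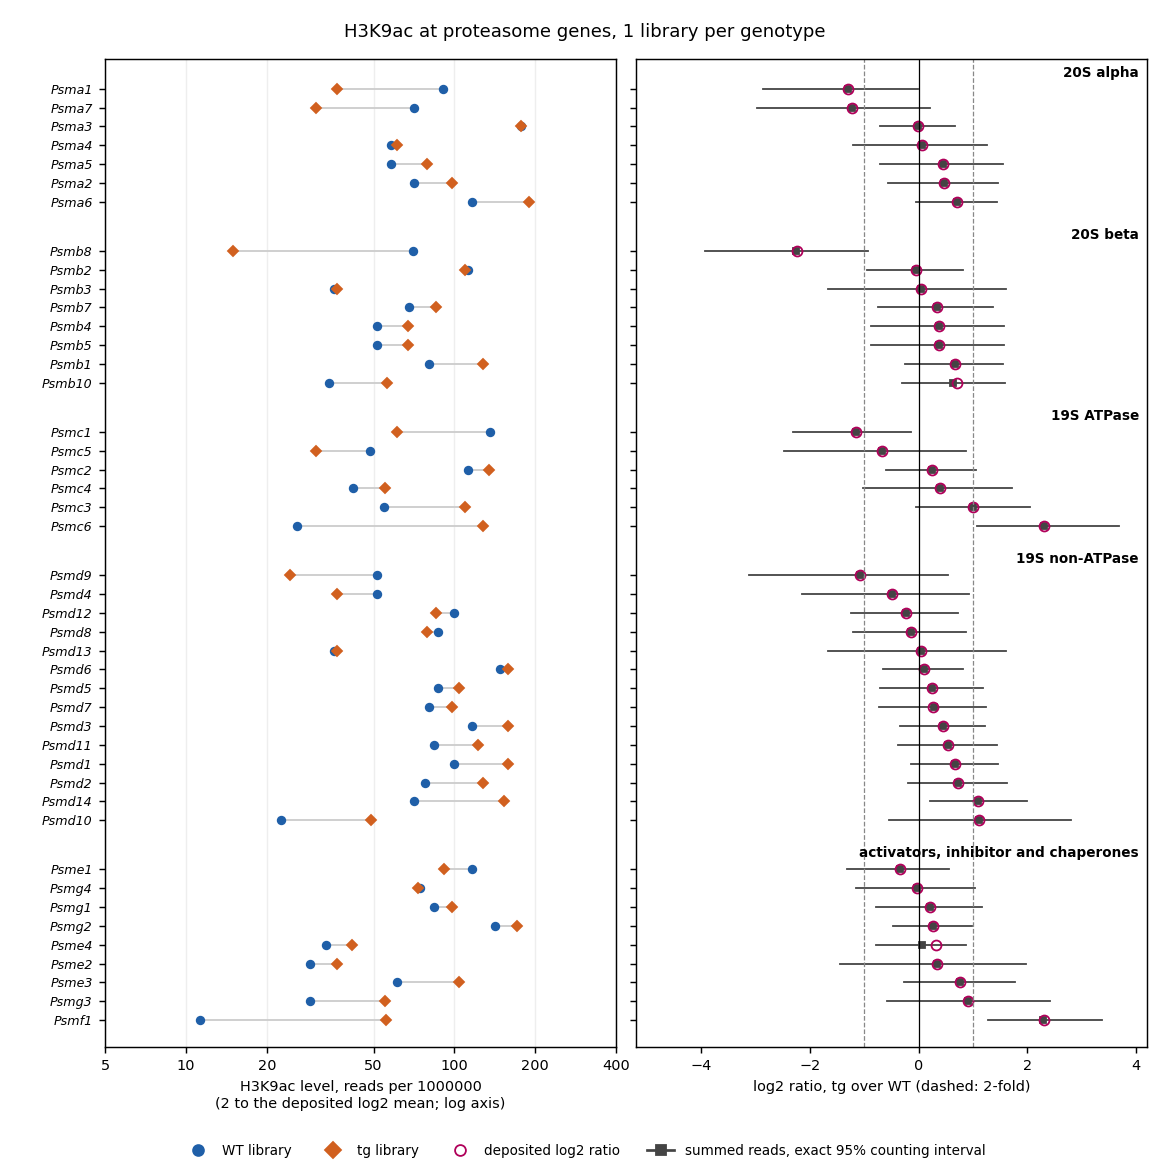
H3K9ac at the 44 proteasome genes; left, the deposited level in each library as reads per 1000000 (log axis); right, the log2 ratio of tg over WT from the deposited values (open circles) and from summed reads with the exact 95% counting interval (squares and lines), dashed lines at 2-fold. Psmc6 and Psmf1 stand to the right at 2.31 and Psmb8 to the left at -2.24, while most lines cross 0.

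RefSeq promoters (GRCm38.p6, 250 bases before to 50 after a gene's start) were found by symbol for 90 of the 116 members. They are shown for the genes at the ends of the proteasome range and for Psma1, each 5′ to 3′ on the strand of the gene, so that the sequences of the genes furthest from equality and the motif matches in them, or their lack, can be read. Capitals mark matches on either strand to a motif searched for. The first was TGACNNNGC, the core of the antioxidant response element, which NFE2L1 binds at proteasome genes. CCAAT is the CCAAT box. The ETS core was searched as CCGGAAG. The GATA core was searched as AGATAA. Searched too were the nuclear respiratory factor palindrome and the interferon-stimulated response element, and the latter was added after the values were seen. No 2 matches overlap in the windows printed. Psmc6 lies at chr14:45329574-45329873 (plus strand), Psmf1 at chr2:151741261-151741560 (minus), Psmb8 at chr17:34197945-34198244 (plus) and Psma1 at chr7:114276067-114276366 (minus).
Psmc6: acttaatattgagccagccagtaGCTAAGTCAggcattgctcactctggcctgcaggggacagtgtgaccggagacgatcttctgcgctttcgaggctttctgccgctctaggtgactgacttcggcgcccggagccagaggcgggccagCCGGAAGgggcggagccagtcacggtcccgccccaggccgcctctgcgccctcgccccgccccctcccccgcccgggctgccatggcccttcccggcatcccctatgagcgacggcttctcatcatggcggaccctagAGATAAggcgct
Psmf1: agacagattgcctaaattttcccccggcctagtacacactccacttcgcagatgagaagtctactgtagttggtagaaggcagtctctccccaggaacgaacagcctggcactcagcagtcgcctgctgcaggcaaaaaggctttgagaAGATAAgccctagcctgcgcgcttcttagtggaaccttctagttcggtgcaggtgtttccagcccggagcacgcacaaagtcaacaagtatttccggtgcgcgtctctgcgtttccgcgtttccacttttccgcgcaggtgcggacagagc
Psmb8: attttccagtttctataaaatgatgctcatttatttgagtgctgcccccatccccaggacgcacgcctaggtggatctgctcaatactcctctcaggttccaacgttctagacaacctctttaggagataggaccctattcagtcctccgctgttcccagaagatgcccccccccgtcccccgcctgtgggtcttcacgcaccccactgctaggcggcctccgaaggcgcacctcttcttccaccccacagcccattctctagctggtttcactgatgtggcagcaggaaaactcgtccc
Psma1: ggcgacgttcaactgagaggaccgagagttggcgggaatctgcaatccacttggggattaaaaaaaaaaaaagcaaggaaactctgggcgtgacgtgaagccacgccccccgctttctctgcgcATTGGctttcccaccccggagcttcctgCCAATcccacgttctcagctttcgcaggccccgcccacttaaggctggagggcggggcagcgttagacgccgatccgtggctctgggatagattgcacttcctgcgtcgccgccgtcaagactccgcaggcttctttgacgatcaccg
For Psmf1 and Psmb8 the RefSeq start lies inside the interval that the table gives for the gene. Psmc6 holds an antioxidant element core, an ETS core and a GATA core, Psmf1 a GATA core, Psma1 a pair of CCAAT boxes, and no letters of Psmb8 matched. The antioxidant element core was in 13.5% of the 37 proteasome promoters and 17.6% of all 6657 promoters of genes in the table, and the ETS core in 37.8% and 23.1%. CCAAT boxes were in 32.4% and 43.2%, with 5 of the 7 alpha subunit genes holding one. The GATA core was in 8.11% of the proteasome promoters (Psmc6, Psmf1 and Psmd9) and 7.48% of those in the table, and the nuclear respiratory factor motif in 5.41% and 2.91%. The interferon element was in 13.5% and 3.94%, and among 6 interferon-inducible members with a promoter only Psme1 held it. Since probe positions are unknown, no read can be assigned to these windows.

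E1 enzymes stand at the head of each conjugation pathway. Of the 6, 1 (16.7%) was 2-fold higher by the deposited values and 0 were lower, beside 16.5% and 15.8% of all genes. Uba1, the main ubiquitin E1 and X-linked, had 7, 8 and 10 reads at its 3 probes in WT and 5, 6 and 9 in tg, a ratio of 1.51 (0.797 to 2.84). Uba6, the other ubiquitin E1, had 14 and 8 reads (1.08, 0.393 to 2.76), Uba2 of the SUMO pathway 28 and 17 (1.15, 0.590 to 2.17), and Uba3 of the NEDD8 pathway 22 and 12 (1.03, 0.465 to 2.18). These 4 intervals include 1. The gene beyond 2-fold was Uba7, the E1 of the interferon-induced modifier ISG15, with a log2 ratio of 1.27. Its 5 probes held 1, 3, 6, 9 and 25 reads in WT and 2, 5, 8, 9 and 19 in tg, and the sum was 1.85-fold higher (1.19 to 2.88), short of 2-fold. It lies within 1 kb of or overlaps Cdhr4 and the gene model Gm20661, each with probes of 1, 6 and 18 reads in WT and 5, 9 and 10 in tg, so some probes may be counted for more than 1 of these genes.

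Of the 28 E2 enzymes, 3 (10.7%) were 2-fold higher, 3 (10.7%) lower and 22 within 2-fold. Over all genes 16.5% were higher and 15.8% lower. Intervals lay above 1 for 5 genes (17.9%) and below 1 for 4 (14.3%), beside 12.8% and 12.7% of all genes with summed reads. Ube2o (ENSMUSG00000020802, chromosome 11, 116537740 to 116581447), a large enzyme known for clearing proteins from maturing red cells, held 7 WT and 16 tg reads. It was 4.32-fold higher (1.68 to 12.4), the highest ratio among the E2 genes, and tg was also the library with the higher erythroid list. Ube2h, which is also abundant in late erythroid cells, was not higher: its 2 probes held 11 and 50 reads in WT and 7 and 14 in tg (0.651, 0.377 to 1.08). Ube2l6, the E2 of ISG15 and likewise found in red cell precursors, had 18 and 7 reads (0.736, 0.260 to 1.85). Of these 3 genes, Ube2o alone was beyond 2-fold.

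Ube2v1, a partner without catalytic activity that lets UBE2N build chains linked through lysine 63, had 39 WT and 50 tg reads, 126 and 305 scaled reads, 2.42-fold higher (1.56 to 3.79). Ube2n itself had 45 and 29 (1.22, 0.737 to 1.99), and the related partner Ube2v2 11 and 8 (1.38, 0.480 to 3.75). The promoter of Ube2v1 (chr2:167631956-167632255, minus strand) is shown since this gene has the best covered 2-fold rise of the members with 1 probe. It holds an ETS core and an antioxidant element core, marked as before.
Ube2v1: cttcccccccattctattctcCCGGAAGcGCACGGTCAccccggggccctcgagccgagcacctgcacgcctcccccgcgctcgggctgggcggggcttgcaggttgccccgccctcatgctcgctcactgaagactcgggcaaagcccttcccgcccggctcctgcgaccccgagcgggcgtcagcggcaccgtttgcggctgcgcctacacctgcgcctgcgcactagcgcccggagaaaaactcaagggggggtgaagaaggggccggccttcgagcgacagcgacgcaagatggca
Ube2k, which builds chains linked through lysine 48, had 54 and 52 reads (1.82, 1.22 to 2.72), and Ube2r2, a CDC34-type enzyme that works with cullin ligases, 64 and 53 (1.57, 1.07 to 2.29). Ube2f, 1 of the NEDD8 E2 pair, was past 2-fold in its deposited values (log2 ratio 1.23), but its summed reads, 38 and 34, gave 1.69 (1.03 to 2.76). The other NEDD8 enzyme, Ube2m, had 105 and 41 reads (0.739, 0.502 to 1.07).

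Lower in tg were Ube2w, Ube2b and Ube2e1. Ube2w, which attaches ubiquitin to the amino terminus of substrates, held 80 WT and 16 tg reads, 258 and 97.7 scaled reads (2.64-fold lower, 1.53 to 4.85; chromosome 1, 16569782 to 16619489). Ube2b, a RAD6 enzyme of DNA damage tolerance and histone H2B ubiquitination, held 96 and 21 (2.42-fold lower, 1.5 to 4.08; chromosome 11, 51985497 to 52000762), with the same values as the gene model Gm12204. Its X-linked twin gene Ube2a had 26 and 20 reads and a ratio of 1.46 (0.770 to 2.71), and the intervals of this pair do not overlap. Ube2e1 had 39 and 9 reads (2.29-fold lower, 1.09 to 5.38), whereas its paralogue Ube2e3 had 31 and 18 (1.10, 0.579 to 2.03). Ube2s, which extends chains for the anaphase-promoting complex, was 1.70-fold lower on 93 and 29 reads (1.11 to 2.67), while Ube2c, which starts them, was level at 23 and 12 (0.987, 0.448 to 2.07). Of the pairs set side by side here, the RAD6 pair is the one whose intervals do not overlap; they overlap for Ube2v1 and Ube2n, Ube2f and Ube2m, Ube2e1 and Ube2e3, and Ube2s and Ube2c.

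Other well covered E2 genes were close to equality. Ube2d3, a general partner of many ligases, had 89 and 52 reads (1.10, 0.769 to 1.57). Ube2l3 had 48 and 29 (1.14, 0.695 to 1.85). The enzymes of protein degradation at the endoplasmic reticulum, Ube2g1, Ube2g2, Ube2j1 and Ube2j2, had log2 ratios of 0.65, -0.49, 0.17 (values shared with 4933421O10Rik) and -0.02, and all 4 intervals include 1. Ube2d2, Ube2q1, Ube2q2 and Ube2z lay between 0.15 (Ube2q1) and 0.80 (Ube2d2) in log2 ratio, with intervals that include 1.

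**Figure D3:**
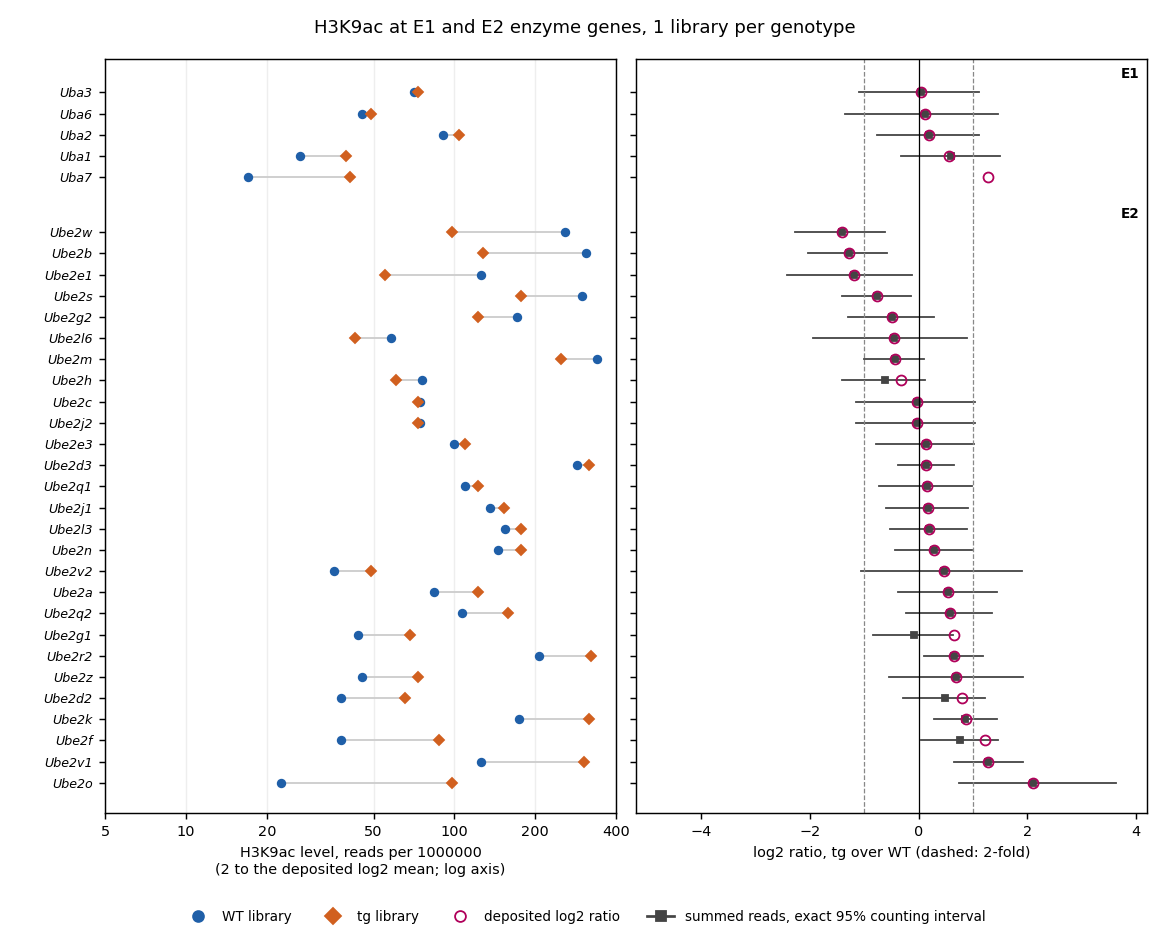
H3K9ac at the E1 and E2 genes named in the text; left, the deposited level in each library as reads per 1000000 (log axis); right, the log2 ratio of tg over WT from deposited values (open circles) and from summed reads with the exact 95% counting interval (squares and lines), dashed lines at 2-fold. Ube2o stands at 2.11 and Ube2w at -1.40; Uba7, with 5 probes, has no interval drawn.

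Of the 35 USP deubiquitinases, 7 were 2-fold higher and 6 lower, 37.1% against 32.3% of all genes, and 3 of the lower ones had 1 or 2 reads in tg. Usp2, a regulator of cyclin D1 and of the circadian clock, had 12 WT reads and 1 tg read (6.34-fold lower, 0.939 to 271). Usp39, a splicing factor related to the USP enzymes, had 14 and 2 (3.70-fold lower, 0.850 to 33.5) with the same values as Ggcx, and Usp35 had 11 and 2 (2.91-fold lower, 0.635 to 27.0). None of these 3 can be told from equality by its interval. Usp32 was 2.56-fold lower on 29 and 6 reads over 2 probes (1.04 to 7.53). Usp22, the deubiquitinase of the SAGA coactivator complex that acts on histone H2B, had 37 and 9 reads, 120 and 55.0 scaled reads, 2.17-fold lower (1.03 to 5.12; chromosome 11, 61151785 to 61175055).

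Usp18 (ENSMUSG00000030107, chromosome 6, 121245906 to 121270916), which removes ISG15 and damps interferon receptor signalling, had a log2 ratio of -1.89 over 3 probes. In tg the probes held 1, 1 and 12 reads. In WT 2 sets of reads match the deposited values, either 4, 32 and 32 or 8, 8 and 64, and give a 2.57-fold (1.43 to 4.94) or 3.02-fold lower sum in tg (1.70 to 5.77). In these 2 libraries the genes of the ISG15 pathway did not share a direction: Usp18 was lower, Ube2l6 was within its counting error of equality, and Uba7 was higher. The summed rise of Uba7 was short of 2-fold (1.85), and some of its probes may be counted for neighbouring genes too. The interferon-stimulated list was lower in tg, and so was Psmb8.

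Higher in tg were Usp46, Usp25, Usp19, Usp7, Usp31, Usp33 and Usp28. Usp46 (chromosome 5, 73998463 to 74068430) held 0 and 12 reads at its probes in WT and 6 and 17 in tg, 3.62-fold higher in sum (1.73 to 8.0), and its deposited log2 ratio of 2.54 rests in part on the 0.9 of a read entered for the empty probe. Usp33, which acts on centrosome and receptor proteins, had 13 and 19 reads (2.76-fold, 1.29 to 6.09), and Usp28, a stabiliser of MYC and of the p53 pathway, 12 and 15 (2.36-fold, 1.03 to 5.53). Usp31 had 5 and 8 with the same values as 1700069B07Rik, and its interval includes 1 (3.03-fold, 0.873 to 11.8). For Usp25, Usp19 and Usp7 the deposited ratios of 1.90, 1.64 and 1.6 (log2) shrank when reads were summed. Usp7, which stabilises MDM2 and p53, went from 73 to 67 reads, a ratio of 1.74 (1.23 to 2.45). Usp19 had 42 and 38 (1.71, 1.07 to 2.72), and Usp25 had 62 and 33 (1.01, 0.639 to 1.56), no difference beyond counting error.

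Several well covered USP genes were nearly equal. Usp47, a regulator of base excision repair, had 68 and 37 reads (1.03, 0.670 to 1.56), Usp3, which acts on histone H2A, 63 and 33 (0.991, 0.630 to 1.53), and Usp1, which acts on FANCD2 and PCNA, 61 and 33 (1.02, 0.649 to 1.59). Usp16, also a histone H2A deubiquitinase, had 32 and 16 (0.946, 0.485 to 1.77). Usp24 was 1.70-fold higher on 59 and 53 reads (1.15 to 2.50) and Usp21 1.83-fold on 33 and 32 (1.09 to 3.08), both short of 2-fold with intervals above 1. Usp14, which sits on the 19S particle and trims chains there, had 16 and 12 reads (1.42, 0.613 to 3.20). Usp9x on the X chromosome had 61 and 27 (0.837, 0.511 to 1.34). Usp4, Usp8, Usp10, Usp15, Usp20, Usp30, Usp34, Usp37, Usp38, Usp40, Usp42, Usp45, Usp48 and Usp53 had log2 ratios from -0.60 (Usp40) to 0.92 (Usp8), each with an interval that includes 1. Usp37 and Usp38 share their values with Rqcd1 and Gm9725.

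**Figure D4:**
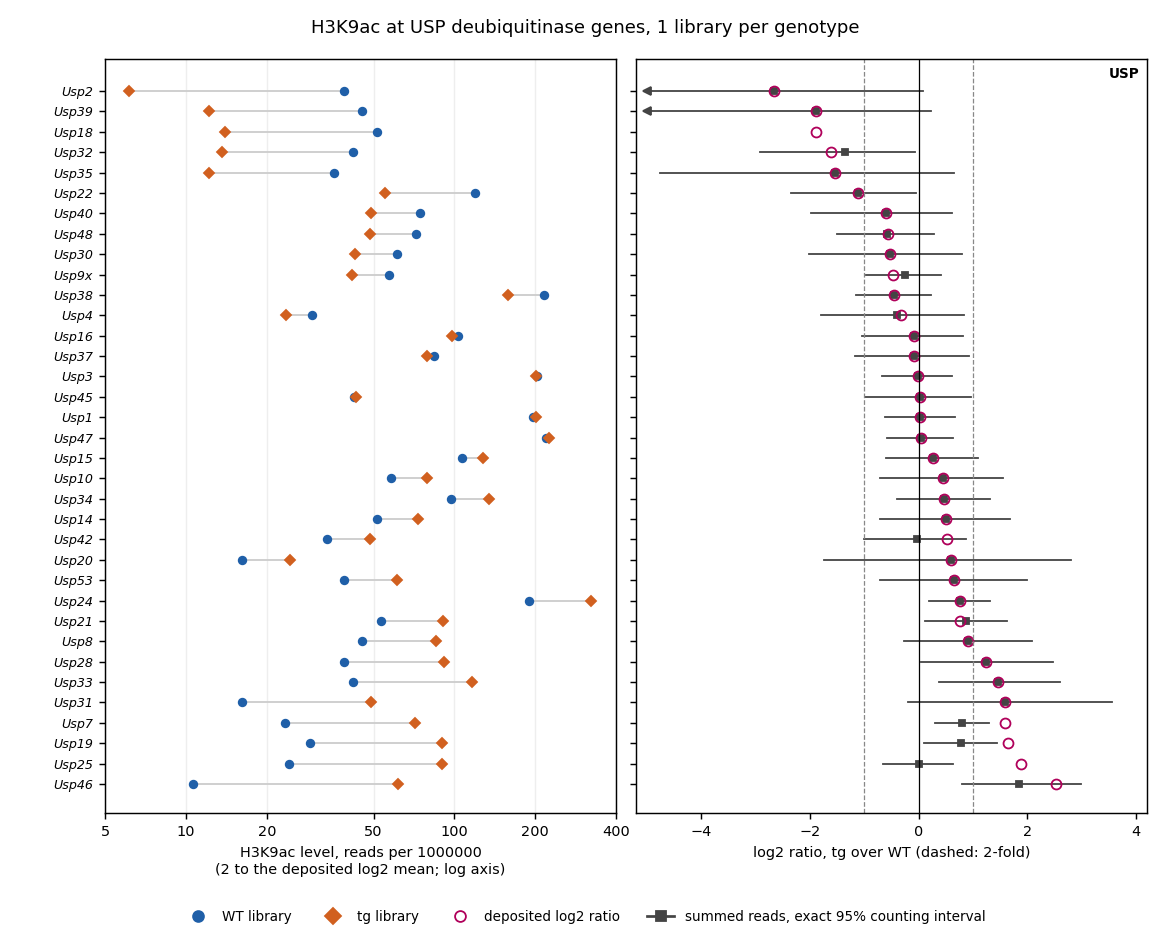
H3K9ac at 35 USP deubiquitinase genes; left, the deposited level in each library as reads per 1000000 (log axis); right, the log2 ratio of tg over WT from deposited values (open circles) and from summed reads with the exact 95% counting interval (squares and lines), dashed lines at 2-fold, triangles where the interval leaves the axis. Usp18 has no interval drawn. Usp2 stands at -2.67 with an interval that reaches equality, and circles and squares part at Usp25 (1.90 and 0.01).

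Deposited and summed values can part because a mean of log2 values gives low probes the same weight as tall ones. Of 21 members with 2 to 4 probes and summed reads, the deposited log2 ratio was above that of the summed reads in 16 (76.2%), and so it was in 62.2% of all 2069 such genes. At Usp25 the probes held 0 and 62 reads in WT and 9 and 24 in tg, so that the tallest probe had a ratio of 0.732 (0.437 to 1.19) and the lower went from 0 reads to 9. Ube2g1 had the same shape, with 4 and 46 reads in WT and 7 and 18 in tg, and a log2 ratio of 0.65 against a summed ratio of 0.946. Usp7 held 3, 3, 5 and 62 reads in WT and 6, 7, 10 and 44 in tg: the tallest had a ratio of 1.34 (0.891 to 2.01) and the other 3 together 3.96 (1.85 to 8.99). Which probe of a gene in WT is which in tg is not given, so the tallest probes need not be the same region.

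The SD over probes was larger in WT than in tg in 16 of these 21 members, and in 60.7% of all 2069 genes of this kind. The tallest probe held 74.6% of the members' reads in WT and 66.1% in tg, and over all such genes 73.3% and 67.5%. Both measures thus leaned the same way in the members and in the table at large.

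**Figure D5:**
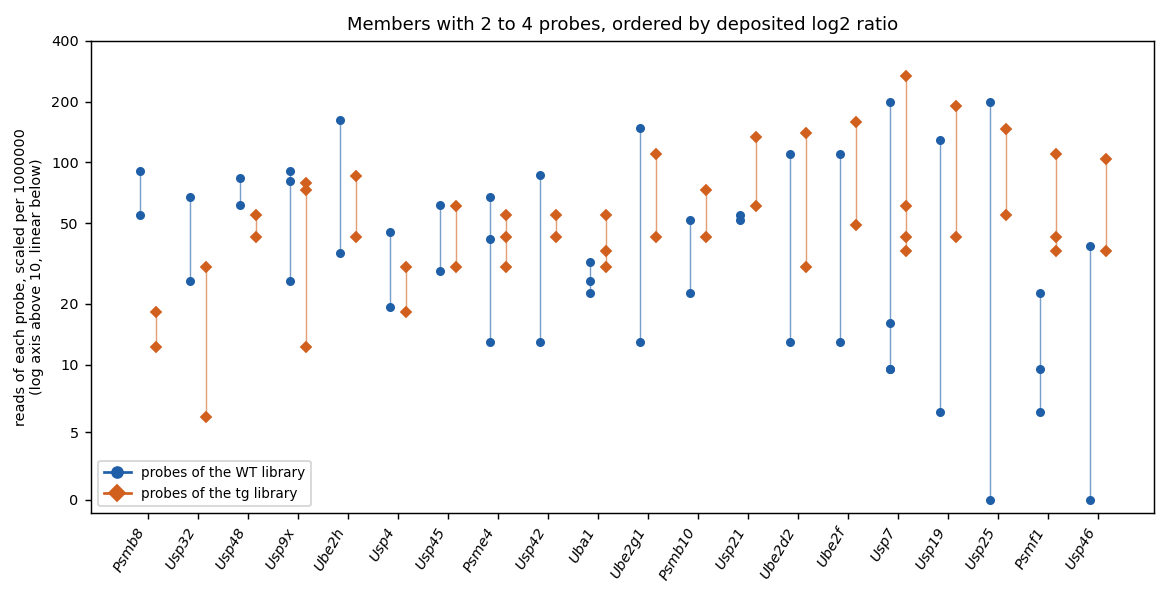
Reads of every probe of members with 2 to 4 probes, scaled per 1000000 (y axis, log above 10 and linear below), for WT (circles) and tg (diamonds), genes ordered by deposited log2 ratio. At Usp25, Usp19, Ube2f, Ube2g1 and Usp42 the lowest tg probe lies above the lowest WT probe, whereas at Psmb8 both tg probes lie under both WT probes.

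The 3 genes that share only the naming were within 2-fold. Usp6nl, a GTPase-activating protein, had 23 and 19 reads (1.56, 0.805 to 3.0), and Ube2cbp, a ligase that binds UBE2C, 13 and 5 (0.728, 0.203 to 2.17).

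Other genes of the pathway were listed apart from the members. Of 81 listed, 76 had a row, with a median log2 ratio of 0.05. Of these, 6 (7.9%) were higher and 2 (2.6%) lower in tg, beside 16.5% and 15.8% of all genes. The higher ones included Otub2, a deubiquitinase of the OTU family, with 1 WT read and 10 tg reads (18.9-fold, 2.69 to 821), and Pomp, the maturation protein of the 20S core, with 6 and 10 (3.15-fold, 1.04 to 10.6). Ubac1, an adaptor of a ubiquitin ligase complex, had 29 and 35 reads (2.28-fold, 1.36 to 3.87), the modifier gene Nedd8, with the same values as Gmpr2, 26 and 28 (2.04-fold, 1.15 to 3.62), and Cops6 9 and 11 (2.31-fold, 0.871 to 6.31). The interval of Cops6 includes 1. Lower were Ufc1, the E2 of UFM1 (50 and 11 reads, 2.40-fold, 1.24 to 5.12), and Adrm1, a ubiquitin receptor of the 19S particle (27 and 6, 2.38-fold, 0.962 to 7.05). The ubiquitin genes Rps27a and Ubb were not beyond 2-fold: Rps27a had 26 and 20 reads (1.46, 0.770 to 2.71) and Ubb 76 and 30 (0.747, 0.472 to 1.15). Nfe2l1, the transcription factor that drives proteasome genes when the proteasome falls short, had 27 and 11 (0.771, 0.345 to 1.6).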

How the data were processed

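H3K9ac ChIP-seq libraries of leukaemic marrow (1 WT, 1 tg) were compared. The 2 IgG libraries match no column of the table and were not analysed here. Per the labels' protocols, red cells were lysed before formaldehyde fixation and sonication. The submitters' processing notes name the tools BWA, SAMtools, FastQC and CASAVA 1.8.2, and as builds GRCm38 and mm10. How probes were placed, and whether duplicates were removed, no source used here states. The authors deposited, per the file headers, a mean and an SD over probes for each gene, on a log2 scale. That scale is not stated and was read off the numbers: for all 7423 genes with 1 probe, linear values were whole reads within 0.01 of a read, with 0 reads entered as 0.9. Reads per probe were recovered for 9492 genes with 1 to 4 probes where exactly 1 set of whole numbers matched mean and SD, and for Uba7 with 5. The recovery with 1 to 4 probes was tested on simulated data, and the intervals at 1 simulated depth and 1 true ratio. Recovery with 5 probes was not tested. Python 3.11.15, SciPy 1.17.1 and pandas 2.3.3 were used. With 1 library per group no p-value is given.

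Named were every proteasome member, and among E1, E2 and USP genes those with the 8 highest and 8 lowest log2 ratios at or above the median level, the 3 best covered and the role groups; other members were named after their values were seen. Some genes counted in the totals are not reported here by name. Members, lists and motifs were chosen with earlier results of these data known. A gene read as sharing a probe has the same values as a neighbour within 100000 bases (14 members), and 46 members lie within 1 kb of another gene of the table. Alternatives were other scaling, summed reads, a pseudocount of 10, filters on level, probes and sex chromosomes, other folds, and the counting interval.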

Additional observations from a re-analysis of the deposited data

How the results depend on the processing

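No paired analysis was possible because each group has 1 library. Over the scalings, filters and summing tried, the median log2 ratio ran from 0.18 to 0.25 for all members, from 0.25 to 0.30 for proteasome genes and from 0.14 to 0.18 for E2 genes. For USP genes it was 0.04 as deposited, -0.0035 after centring, 0.15 without the sex chromosomes and 0.36 at or above the median level. Counts moved too. Of 30 members beyond 2-fold, 29 remained so after centring on the median gene (Psmc3 did not) and 24 after adding 10 scaled reads. Of the 28 with summed reads, 24 remained so and 0 changed sign. Centring and the added reads could not change the sign of such a gene. At or above the median level, a filter built from the compared values, 7 members were higher and 6 lower, beside 10.2% and 10.8% of all such genes. Proteasome genes made up 3 and 2 of these members, and USP genes 2 and 1. Among genes with 1 probe, 9 members were higher and 11 lower (USP 3 and 4), beside 14.3% and 16.1% of all such genes. Summed reads gave 11 higher and 13 lower (USP 4 and 5), beside 14.8% and 15.4%. The added 10 scaled reads left 3 proteasome genes higher and 3 lower. The share over all genes was not worked out for this setting, so these counts cannot be weighed against it. A 1.5-fold rule gave 34 of the 116 members higher and 17 lower (proteasome 12 and 6, E2 8 and 4, USP 12 and 7), beside 28.7% and 25.4% of all genes. A 3-fold rule gave 8 higher and 5 lower (proteasome 2 and 1, E2 1 and 0, USP 5 and 4), beside 8.49% and 7.99%. By the counting interval, 15 members were higher and 9 lower (proteasome 3 and 3, E2 5 and 4, USP 7 and 2). The shares over all genes with summed reads were 12.8% and 12.7%. The depth limits small differences: the median member had 26.5 WT and 16.5 tg reads, and a count of 0 allows up to 3 reads, 9.69 scaled reads in WT and 18.3 in tg.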
